A study of Homo sapiens with 8 samples.

Results

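UBA1 encodes the main E1 enzyme of ubiquitin, and its splicing was followed through every splice junction listed for the gene. The gene (ENSG00000130985.16) lies on the plus strand of the X chromosome at 47190861 to 47215128 of GRCh38. All plus-strand junctions within it were taken, and the junction from 47200545 to 47200893 was examined together with junctions ending just before 47200545. This gave 93 junctions of 860791 in the whole dataset, of which 29 were annotated introns and 64 were not annotated. UBA1 was chosen by the reads of that junction, present in K700E and absent in wild type at day 4, and by its level in the same libraries. Its junction use and its level at day 4 are therefore a description, with no test.

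The data were junction read counts from total RNA of K562, an established human erythroleukaemia line that a label calls epithelial. The cells were labelled SF3B1 wild type or SF3B1 K700E, and every group received doxycycline at 1 ug/ml to induce the modified allele, wild type included. RNA was taken at 4 and 8 days, with 2 libraries in each of 4 groups. The labels do not say whether replicates were separate cultures, how the allele was introduced or whether the cells were 1 clone, so p-values measure only the spread between these libraries.

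E1 enzymes activate ubiquitin with ATP and hand it to E2 enzymes, which pass it, usually with an E3 ligase, to target proteins. UBA1 supplies most of the activated ubiquitin of a cell, and somatic UBA1 mutations in blood precursor cells cause the inflammatory disease VEXAS. SF3B1 is a subunit of the U2 snRNP that helps to fix the branch point before a 3' splice site (acceptor). The K700E substitution, recurrent in myelodysplastic syndromes, is known for the use of cryptic acceptors, often a short way upstream of the normal one.

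Unique junction reads ranged from 49338071 to 77750812 per library. The K562 label was compared with marker genes: the erythroid regulator GATA1 had 114 to 151 CPM (counts per 1000000 junction reads counted to genes, after composition scaling) at day 4, and 14 of 14 erythroid markers passed the expression filter. Of 7 epithelial markers 5 passed it: the keratins KRT18, KRT8 and KRT19 had 205 to 442, 156 to 303 and 31.2 to 117 CPM and EPCAM 70.6 to 104 CPM, while CDH1 and GRHL2 did not pass. Day 8 libraries did not separate by label at the acceptors known to respond to SF3B1 hotspot substitutions, as given with the values of those acceptors, so day 8 values are given per library under their labels. Under the wild-type label at day 8, 3.55% and 4.94% of the unannotated junctions rested on a single read; elsewhere the share was 23.7% to 34.9%. The alignment logs name a month: April for all day 4 libraries, and for day 8 Feb (wild type) and March (K700E). What the month marks is not stated. At day 8 label and named month cannot be told apart.

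The cryptic event was an extra exon. A junction from exon 5 into the intron (47199615 to 47200409) and the junction from 47200545 to exon 6 (47200893) faced each other across 135 nt, at 47200410 to 47200544. Exons are numbered as in transcript UBA1-203 of GENCODE release 29, which has 26 exons and a coding sequence of 3174 nt that starts in exon 2. The cryptic exon lay in the 1279-nt intron between exon 5 and exon 6, 795 nt after exon 5 and 349 nt before exon 6. A further acceptor 8 nt upstream had 5 reads over all libraries. Junction tables do not show whether 1 transcript carried both junctions.

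The length of the cryptic exon is a multiple of 3, 45 codons long. It enters the coding sequence after 480 nt, 160 complete codons, so exon 6 is in the same frame with it as without it. Whether the exon holds a stop codon was not read. The flanking exons are printed to show the site of insertion, with the last codon of exon 5 and the first codon of exon 6 in capitals. Both are from the GENCODE release 29 transcript, 5' to 3', at chrX:47199480-47199614 and chrX:47200894-47201000 of GRCh38, plus strand.
UBA1 exon 5: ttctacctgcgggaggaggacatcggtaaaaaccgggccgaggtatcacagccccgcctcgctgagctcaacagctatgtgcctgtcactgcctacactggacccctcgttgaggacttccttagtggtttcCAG
UBA1 exon 6: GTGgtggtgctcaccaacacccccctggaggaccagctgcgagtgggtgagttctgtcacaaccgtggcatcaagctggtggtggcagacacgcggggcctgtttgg
Exon 5, at 135 nt, is as long as the cryptic exon, and exon 6 has 107 nt. The 135 intronic bases of the cryptic exon were not read here.

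At day 4 both junctions of the cryptic exon had reads in both K700E libraries and in neither wild-type library. The junction from exon 5 to the cryptic exon had 0 and 0 reads in wild type and 115 and 65 in K700E. The junction from the cryptic exon to exon 6 had 0 and 0 reads in wild type and 95 and 88 in K700E. Direct splicing of exon 5 to exon 6 had 719 and 802 reads in wild type and 815 and 591 in K700E. Reads that supported the cryptic junctions in K700E reached an overhang of 74 or 75 nt at both, well above the 12 nt that the aligner asked for.

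**Figure D1:**
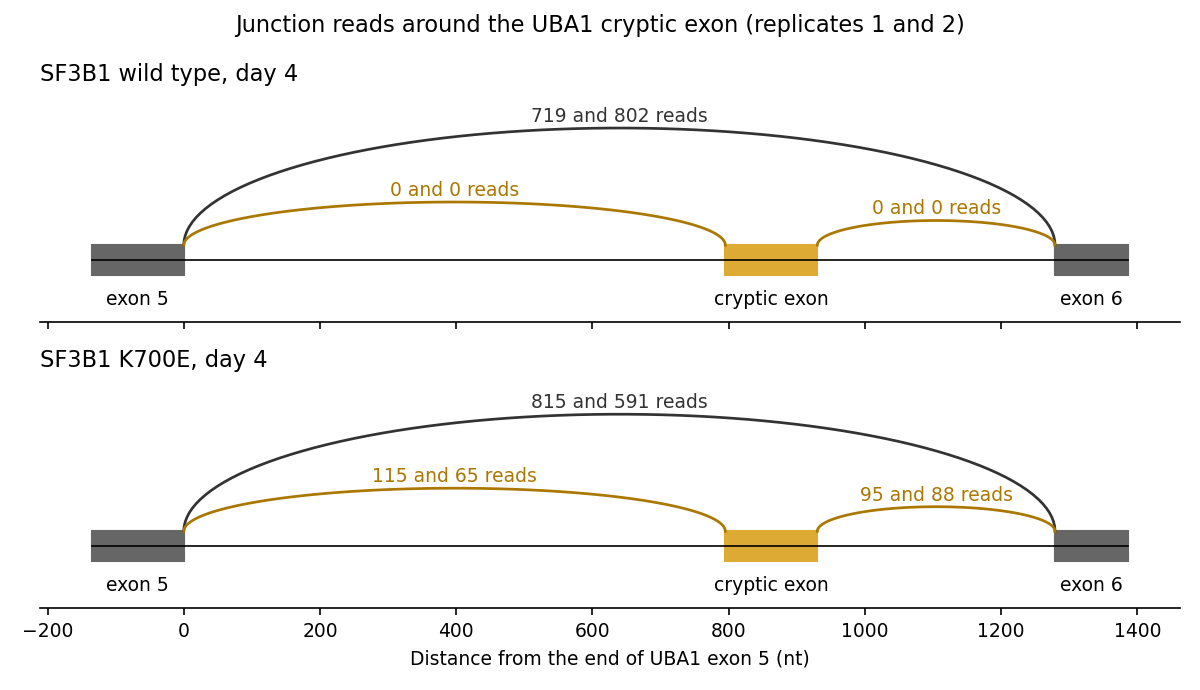
Map of UBA1 exon 5, the cryptic exon and exon 6 at day 4, to scale, with distance from the end of exon 5 in nt on the x axis; arcs are splice junctions and the numbers above them are unique reads in replicates 1 and 2. The cryptic junctions had 0 reads in wild type and 65 to 115 in K700E.

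As a share of all reads into exon 6, the cryptic junction took 10.4% (95% Wilson interval 8.62% to 12.6%) and 13.0% (10.6% to 15.7%) in the K700E libraries, 11.7% ± 1.78 (SD, n = 2). The 0 of 719 and 0 of 802 reads in wild type allow shares of up to 0.417% and 0.374% by a limit of 3 reads; the Wilson upper limits are 0.531% and 0.477%. These intervals and limits cover counting error only, and the labels name no molecular identifiers. As a share of reads leaving exon 5, the junction into the cryptic exon took 12.4% (10.4% to 14.6%) and 9.85% (7.80% to 12.4%) in K700E. Replicate 1 was the higher of the K700E pair at the first junction and the lower at the second. With both junctions averaged, inclusion was 11.4% and 11.5%, a mean of 11.4% ± 0.0337 (SD, n = 2). The opposite differences cancel in that SD, which was 1.77 at the junction into the exon and 1.78 at the junction out of it.

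At day 8 the exon was used at over 10% in 1 library of each label. The library labelled wild type replicate 1 had 10 reads into the exon and 0 out of it, and replicate 2 had 160 and 129. The library labelled K700E replicate 1 had 3 and 2 reads, and replicate 2 had 256 and 292. Direct splicing had 1112 and 759 reads under the wild-type label and 1162 and 1111 under the K700E label. The share of reads into exon 6 was 0% (0 of 1112 reads, which allows up to 0.270% by the limit of 3 reads and 0.344% by Wilson's) and 14.5% (12.4% to 17.0%) under the wild-type label. It was 0.172% (0.0471% to 0.624%) and 20.8% (18.8% to 23%) under the K700E label. Unannotated junctions with a single read were scarcer under the wild-type label at day 8 (3.55% and 4.94%) than elsewhere. Whether low counts were left unlisted there was not tested, so a 0 in those libraries may not equal a 0 in others. Inclusion from both junctions was 0.448% and 16% under the wild-type label, 8.22% ± 11.0 (SD, n = 2), and 0.215% and 19.8% under K700E, 10.0% ± 13.8. The groups overlapped, and the spread within each label exceeded the difference between them. In the library labelled wild type replicate 1 the longest overhang of the 10 reads was 37 nt, against 71 nt or more in the other 5 libraries with reads.

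**Figure D2:**
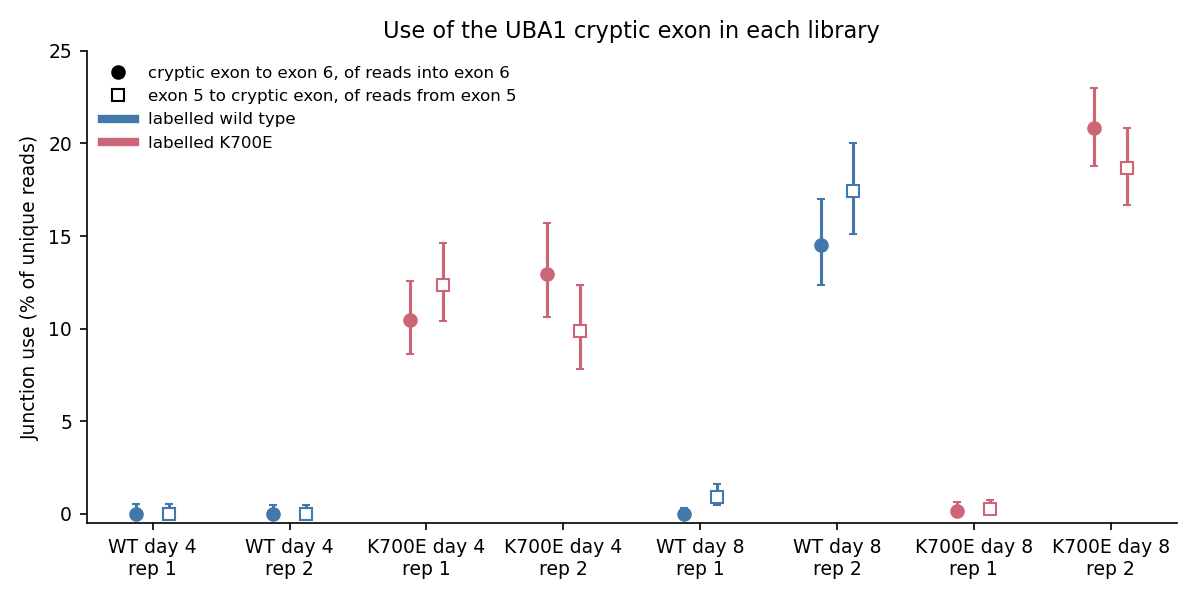
Use of the 2 junctions of the UBA1 cryptic exon in each of the 8 libraries (y axis, percent of unique reads at the shared end), with 95% Wilson intervals as bars and colours for the labelled genotype. At day 4 the K700E libraries sit at 9.85% to 13.0% and wild type at 0%; at day 8 replicate 2 of each label is at 14.5% to 20.8% and replicate 1 of each is under 1%.

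The median acceptor use of genes known to respond to SF3B1 hotspot substitutions split the 8 libraries in the same way. Of 26 such genes, listed from general knowledge, 23 had an acceptor 10 to 30 nt upstream of a more used annotated one. Their median use at day 4 was 1.70% and 2.90% in wild type and 34.6% and 37.9% in K700E. Of the 23 acceptors, 20 were higher in both K700E libraries than in both wild-type libraries at day 4. TMEM214 went the other way (38.6% and 40.9% in wild type, 5.03% and 7.74% in K700E), as did ORAI2, with 10 reads in all, and PPOX overlapped (23.1% and 13.2%, 15.8% and 18.9%). The acceptor taken per gene was the one with the most reads over all 8 libraries, which can favour acceptors used in K700E. No share over all such acceptors was computed, so the count of 20 is a description only. The median at day 8 was 0.513% and 42.3% under the wild-type label and 3.67% and 39.8% under the K700E label. The library labelled wild type replicate 2 was therefore high and that labelled K700E replicate 1 low in this median, as at UBA1. Which samples these 2 libraries are was not tested, and no library was moved to another group.

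Inclusion of the UBA1 exon was in the lower part of the range of the known targets. At day 4 it exceeded 6 and 5 of the 23 acceptors in the K700E libraries. For comparison, DLST, an enzyme of the citric acid cycle, had 73.0% and 61.6% there, and MAP3K7, the kinase TAK1, had 63.3% and 57.5%. METTL5, an rRNA methyltransferase, had 11.1% and 12.6%, close to the UBA1 values. In wild type at day 4, DLST had 1.70% and 1.90% and MAP3K7 12.3% and 9.49%, whereas UBA1 was at 0 in both libraries. Of the 23 acceptors, 4 and 3 were at 0 in those libraries. The cryptic UBA1 exon differs from these acceptors in kind, since its acceptor is 484 nt before that of exon 6.

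**Figure D3:**
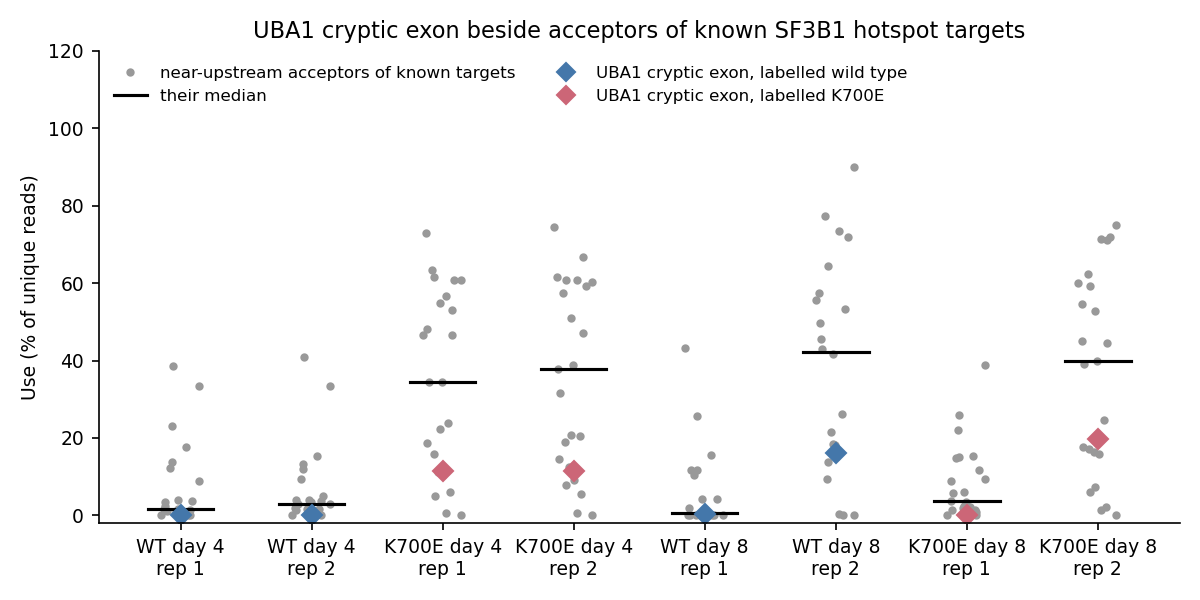
Use of the near-upstream acceptors of 23 genes known to respond to SF3B1 hotspot substitutions (grey points, black line for the median) and inclusion of the UBA1 cryptic exon (diamonds) in each library, in percent of unique reads. UBA1 is at 11.4% and 11.5% in K700E at day 4, under medians of 34.6% and 37.9%, and follows the split of the day 8 libraries.

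Direct splicing of exon 5 to exon 6 was lower in K700E at day 4, where the cryptic exon was used. Relative to the mean of the introns on either side (exon 4 to 5 and exon 6 to 7), it was 0.834 and 0.849 for wild type and 0.735 and 0.742 for K700E at day 4. The means were 0.841 ± 0.0106 and 0.738 ± 0.00493 (SD, n = 2). With the mean of the 2 cryptic junctions added, the ratio was 0.829 and 0.838 in K700E, 0.833 ± 0.00588, which overlapped wild type. At day 8 the ratio of direct splicing was 0.741 and 0.706 under the wild-type label and 0.855 and 0.667 under the K700E label. With the cryptic junctions added it was 0.745, 0.840, 0.857 and 0.832 in the same order. The library labelled wild type replicate 1, which hardly used the cryptic exon, had a ratio of direct splicing as low as K700E at day 4, and with the cryptic junctions added it was below the other 7.

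**Figure D4:**
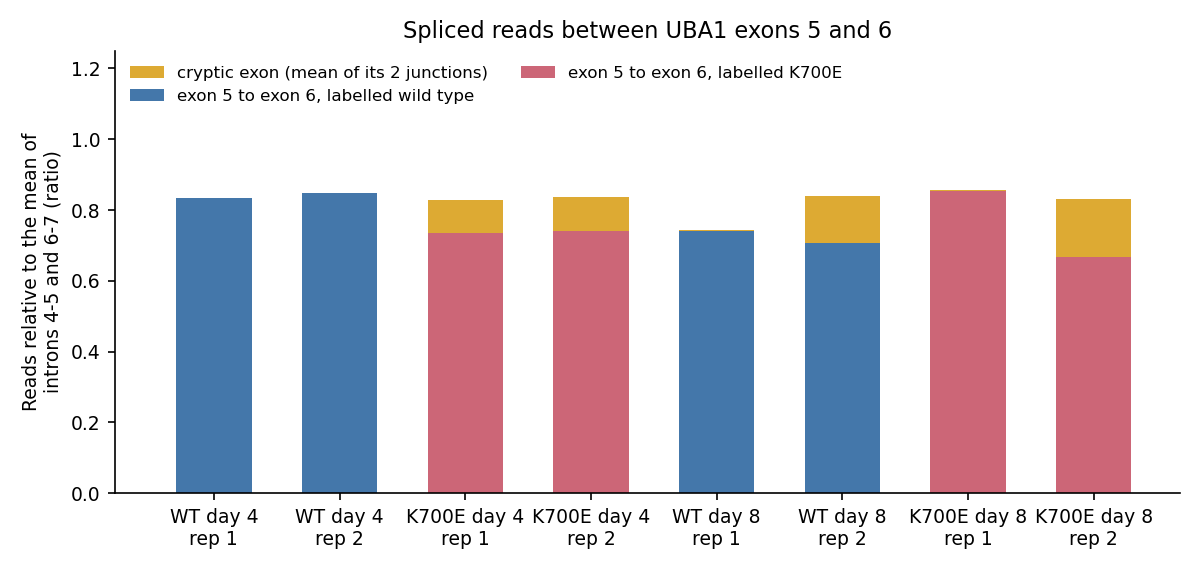
Reads of direct splicing from UBA1 exon 5 to exon 6 (blue or red) and of the cryptic exon (mean of its 2 junctions, yellow), as a ratio to the mean of the introns before and after (y axis), for each library. The sum is 0.829 to 0.857 in 7 libraries and 0.745 in the library labelled wild type day 8 replicate 1.

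The intron between exons 5 and 6 stood lowest of the introns of the gene in K700E at day 4. Over the 24 introns after exon 2, the ratio of mean RPM (reads per 1000000 unique junction reads), K700E to wild type, had a median of 1.07 and a highest value of 1.14. It was 0.857 for direct splicing of exon 5 to 6, and next lowest was 0.938 between exons 12 and 13. Intron 5 to 6 had 11.8 and 10.9 RPM in wild type and 10.5 and 8.97 in K700E. At day 8 the ratios over the same introns ranged from 0.726 to 1.68 under the labels.

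In the fits over all junctions, edgeR's diffSpliceDGE made the calls, at an adjusted p under 0.05 with use changed by 5 points or more. At day 4 it called 327 of 69838 junctions that share a donor (0.468%), 251 with higher and 76 with lower use in K700E. Of 10 UBA1 junctions tested there, 1 was called, the junction from exon 5 into the cryptic exon. Among junctions that share an acceptor it called 20 of 64625 (0.0309%). Of 9 UBA1 junctions tested there, 1 was called, the junction out of the cryptic exon. Because that contrast chose UBA1, nothing is read from these calls. Neither UBA1 call was made without either wild-type library. Without either K700E library the cryptic junctions had reads in 1 library alone and could not be tested. The share into exon 6 differed by 10.4 to 13.0 points with each library left out. At day 8, under the labels, 0 of 63314 and 0 of 59492 junctions were called (0%), with 1765 and 1652 at an unadjusted p under 0.05, and limma's diffSplice also called 0. None of the 10 and 11 UBA1 junctions tested passed even an unadjusted p under 0.05 by either tool.

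Of the 64 unannotated UBA1 junctions, 24 were seen in 1 library alone, 10 had 1 read in all and 4 were in all 8 libraries. The junctions into and out of the cryptic exon had the most reads of the 64, with 609 and 606 over all libraries. Unannotated junctions carried 0.370% and 0.458% of UBA1 junction reads for wild type and 1.12% and 1.03% for K700E at day 4. At day 8 they carried 0.306% and 1.13% under the wild-type label and 0.358% and 1.97% under the K700E label. These shares include the cryptic junctions. Without them they were 0.370% and 0.458% in wild type and 0.424% and 0.408% in K700E at day 4. At day 8 they were 0.283%, 0.256%, 0.341% and 0.622% in the same order of labels. Single-read junctions were scarcer under the wild-type label at day 8, so the day 8 shares may not be comparable between labels.

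A second UBA1 acceptor was of the short upstream kind. It lay 23 nt before the acceptor of exon 16 (47206224 against 47206247) and would shift the frame, since 23 leaves a remainder of 2 after division by 3. Its reads were 1 and 0 for wild type and 15 and 9 for K700E at day 4. They were 0 and 7 under the wild-type label and 0 and 25 under the K700E label at day 8. Its share of reads leaving exon 15 was 0.0754% and 0% for wild type and 0.828% (0.503% to 1.36%) and 0.686% (0.362% to 1.3%) for K700E at day 4, and day 8 gave 0%, 0.395%, 0% and 1.23% in the same order of libraries. The 4 libraries with at least 7 reads were the 4 that used the cryptic exon, at a far lower level. In the day 4 fit its change was 0.72 points. This was less than the change a call required, so the junction could not be called at any p-value. Nothing is read from the absence of a call. The exon ends on either side of this site are shown, with the 3 bases next to the splice sites in capitals, from chrX:47206084-47206113 and chrX:47206248-47206277 of GRCh38 in the same GENCODE transcript.
UBA1 exon 15, last 30 bases: tggccaatgccctggacaacgtggatgCCC
UBA1 exon 16, first 30 bases: GCAtgtacatggaccgccgctgtgtctact

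An acceptor 20 nt before that of exon 4 (47199188) had 0 and 2 reads for wild type and 0 and 7 for K700E at day 4, and 0 at day 8. The other named unannotated junctions had reads on both sides of the cryptic-exon split. A junction from a donor at 47197025 to the acceptor of exon 2 had 17 and 24 reads for wild type and 43 and 29 for K700E at day 4. It had 58 and 21 under the wild-type label and 39 and 103 under the K700E label at day 8. Other junctions ended shortly before this donor, so it need not be the donor of a first exon. From 47194025, 86 reads in all ended at 47196946 and 28 at 47196949, and 16 ran from 47196470 to 47196946. At day 4, 5 and 4 reads skipped exon 4 in wild type and 7 and 9 did so in K700E; the day 8 libraries, in the same order of labels, had 18, 11, 6 and 11. It took between 0.42% and 1.08% of the reads leaving exon 3 over the 8 libraries.

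Exon 6 was rarely left out with or without the cryptic exon. Splicing of exon 5 to exon 7 had 3 and 9 reads for wild type and 0 and 3 for K700E at day 4, and 1 read in all at day 8, in the library labelled K700E replicate 2. The cryptic exon was joined to exon 7 by 1 read in wild type replicate 1 at day 4 and 2 reads in the library labelled K700E replicate 2 at day 8. That single read is the one sign of the cryptic donor in a wild-type library at day 4. A junction to exon 7 from a donor within exon 6, 61 nt before its end, had 33 reads in all and at most 12 in a library. A donor 159 nt after the end of exon 20, joined to exon 21, had 10 and 10 reads for wild type and 10 and 4 for K700E at day 4.

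At the start of the gene, most reads into exon 2 came from an alternative first exon with its donor at 47194025. This junction had 341 and 481 reads for wild type and 529 and 435 for K700E at day 4, and 1205, 998, 921 and 1179 at day 8. The first exon of UBA1-203 (donor at 47190951) had 8 and 1 reads for wild type and 0 and 0 for K700E at day 4. At day 8 it had 34 reads in the library labelled wild type replicate 1 and 0 in the other 3. A donor at 47198356, joined to exon 2, had 33 and 36 reads for wild type and 38 and 29 for K700E at day 4. An annotated junction from 47194025 ended shortly before this donor, at 47198308, with 13 reads in all. The donor at 47198356 therefore need not be that of a first exon. The junction from 47190951 was not among those tested in the day 4 fit. By shared acceptor, the junctions from 47194025 and 47198356 differed by -0.58 and -1.49 points, K700E minus wild type. Both changes were smaller than a call required, so nothing is read from the absence of a call.

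The level of the gene was close between genotypes at day 4. The sum over UBA1 junctions was 363.5 and 351 RPM in wild type and 388 and 376 in K700E, 357 ± 9.05 against 382 ± 8.73 (SD, n = 2). On this scale the K700E libraries were slightly higher and did not overlap wild type. With edgeR's composition scaling the order changed: UBA1 had 391 and 388 CPM in wild type and 388 and 384 in K700E, a log2 difference of -0.01 (SE 0.11). No direction is given to it. At day 8 the sum was 602 and 542 RPM under the wild-type label and 617 and 665 under the K700E label. The log2 change at day 8 was 0.16 (SE 0.21, adjusted p 1.00 by edgeR) and was not called.

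All 4 day 8 libraries lay above all 4 day 4 libraries in UBA1 RPM. Day and the month named in the alignment logs cannot be told apart, and no test was made. In these bulk samples fewer cells of a type and less RNA per cell cannot be told apart either. At day 4 the megakaryocyte gene ITGA2B, an integrin subunit, rose from 11.2 and 19.7 CPM in wild type to 92.7 and 94.2 CPM in K700E (log2 change 2.60, adjusted p 0.0418 by edgeR). No gene was called with all 8 libraries in 1 model or without either wild-type library, so this call ends there. Of 7 megakaryocyte markers 4 passed the filter at day 4. Their sum was 11.8 and 22.4 CPM in wild type and 119 and 119 CPM in K700E, most of it ITGA2B. GP1BA, GP9 and PF4 did not pass, with at most 8 reads in a day 4 library. At day 8 the sum over 3 markers was 104 and 79.1 CPM under the wild-type label and 41.5 and 538 under the K700E label. The summed erythroid markers, 14 of 14 past the filter, were at 2322 and 1929 CPM in wild type and 1885 and 1024 CPM in K700E at day 4. The part of these marker differences in the UBA1 values was not tested.

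The rest of the ubiquitin pathway was read against all genes. At day 4 edgeR's quasi-likelihood test called 74 of 13991 (0.529%) at an adjusted p under 0.05, 32 higher and 42 lower in K700E. Of 71 other genes in 5 ubiquitin lists, 70 were tested and 0 were called by edgeR, near that background, with 17 at an unadjusted p under 0.05 beside 2979 (21.3%) of all genes. DESeq2 called 7 of the 70, 1 higher and 6 lower, where it called 1634 of all 13991 genes. With no filter edgeR called 4 of the 70, where it called 1567 of all 19722 genes. In the lists that follow, calls are edgeR's. Their median log2 change was -0.09, beside 0.02 for all genes tested. At day 8, under the labels, 0 of 13990 genes (0%) were called, with 408 at an unadjusted p under 0.05 and 27 by DESeq2. Of the 70 pathway genes 0 were called by either tool, with 5 at an unadjusted p under 0.05, and their median log2 change was -0.01 beside 0.01 for all genes.

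Among the other E1 enzymes, which activate ubiquitin or its relatives, 0 of 8 tested were called, with a median log2 difference of 0.07 at day 4. UBA6, the other E1 of ubiquitin, had 444 and 403 CPM in wild type and 336 and 363 in K700E (log2 difference -0.28, SE 0.12). SAE1, which with UBA2 forms the E1 of SUMO, had 208 and 209 CPM in wild type and 254 and 274 in K700E (0.34, SE 0.12). Neither of these 2 genes was called. UBA2 differed by 0.06. UBA3 and NAE1, which together form the NEDD8 E1, differed by 0.20 and 0.31. UBA7, the ISG15 E1, differed by -0.69 with an SE of 0.35. ATG7, the autophagy E1, differed by -0.08. MOCS3 has no intron in the annotation used and was not measured.

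Of 13 tested genes for ubiquitin and its relatives, 12 had a log2 difference below 0 at day 4, with a median of -0.27, and 0 were called. ISG15, an interferon-induced modifier, had 2.50 and 4.38 CPM in wild type and 1.48 and 1.15 in K700E (log2 difference -1.39, SE 0.40). NEDD8, the activator of cullin ligases, had under 1 CPM in every day 4 library. Introns annotated to more than 1 gene were not counted, so this need not be its full level. At day 8 the median of this list was 0.14, with 9 of 13 above 0 under the labels.

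Of 31 ubiquitin E2 enzymes tested, 20 were below 0 and 0 were called by edgeR, with a median log2 difference of -0.11. UBE2H, an E2 of erythroid maturation, had 80.8 and 83.8 CPM in wild type and 50.6 and 38.4 in K700E (-0.89, SE 0.17, adjusted p 0.0936 by edgeR). UBE2B, an E2 of DNA damage tolerance, had 98.2 and 99.7 CPM in wild type and 67.9 and 67.0 in K700E (-0.55, SE 0.12). UBE2E2 had 2.7 and 1.78 CPM in wild type and 3.75 and 5.12 in K700E (0.99, SE 0.35). These 3 genes were named for the largest log2 changes of the list, and none was called.

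Of the 6 E2 enzymes of ubiquitin-like modifiers, 3 were above and 3 below 0, with a median of -0.09. The autophagy E2 enzymes ATG3 and ATG10 differed by 0.34 and -0.23. Of 12 tested recycling and p97 factors, 8 were above 0, with a median of 0.12. The proteasome-bound deubiquitinase USP14 had 355 and 406 CPM in wild type and 497 and 545 in K700E (0.45, SE 0.13). OTULIN, which removes linear ubiquitin chains, differed by -0.43. UCHL1, a ubiquitin hydrolase of neurons, had 292 and 89 reads for wild type and 0 and 0 for K700E at day 4. It was not called (adjusted p 0.0706 by edgeR), and at day 8 it had 131 and 0 reads under the wild-type label and 30 and 0 under the K700E label.

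**Figure D5:**
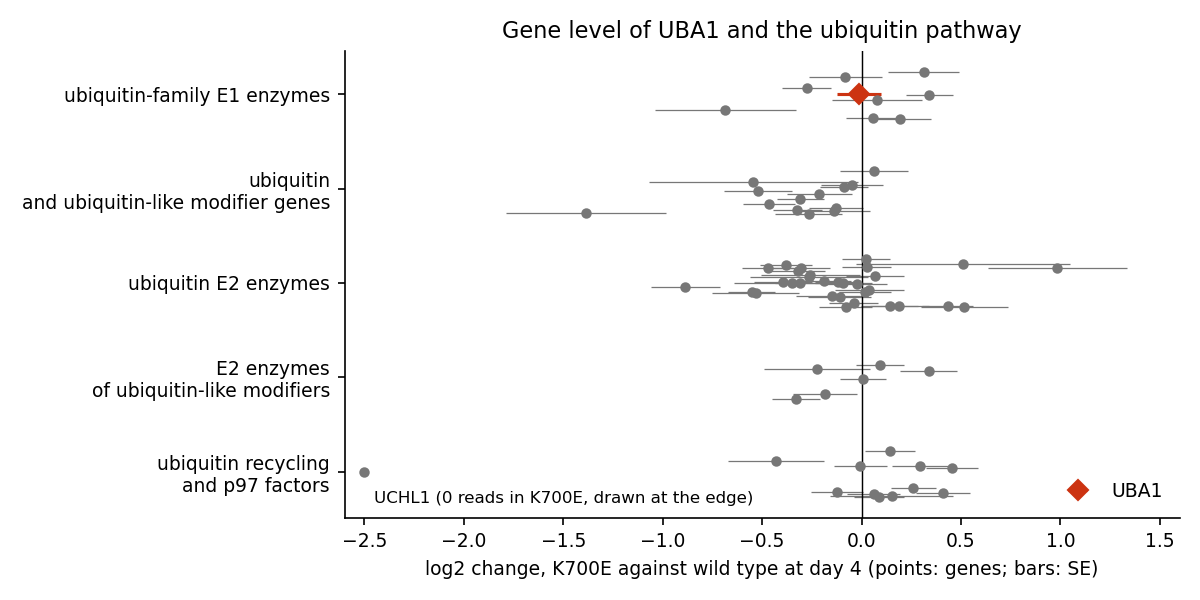
Log2 change of each tested gene of the 5 ubiquitin lists at day 4, K700E against wild type (x axis), with SE as bars and UBA1 as a red diamond; UCHL1, at 0 reads in K700E, is drawn at the left edge. Most genes lie within 0.5 of 0, UBA1 is at -0.01, and 12 of 13 modifier genes lie below 0.

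The neighbours of UBA1 on the X chromosome were listed as a local comparison. Of 14 genes, 11 were tested and 0 were called, with 8 below 0 and a median log2 difference of -0.12 at day 4. RBM10, a splicing regulator, had 152 and 147 CPM in wild type and 115 and 101 in K700E (-0.46, SE 0.13). NDUFB11, a subunit of respiratory complex I, differed by -0.40, and ELK1 and JADE3 by -0.44 and -0.43. TIMP1, UXT and CDK16 differed by -0.26, -0.06 and -0.12. ARAF, USP11, SYN1 and ZNF41 differed by 0.07, 0.17, -0.08 and 0.01. UBA1 thus lay within the range of its neighbours at day 4, which ran from -0.46 to 0.17.

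Junctions in other genes whose use was most like that of the cryptic junction were sought by Pearson's r over the 8 libraries, among 34137 candidate junctions. The 5 most alike, 1 per gene, were in NET1 (r = 0.998), WDR34 (0.995), ZBTB11 (0.994), MED13L (0.993) and TRIM37 (0.990). The 8 points share the split of libraries described for the known targets, so these values are a description. In NET1, a RhoA exchange factor, the junction ended 22 nt upstream of the most used annotated acceptor. Its use was 0.286% and 0.417% for wild type and 12.1% and 13.5% for K700E at day 4, and day 8 gave 0%, 15.7%, 0.240% and 21.3%, near the UBA1 values in each library. In TRIM37, a ubiquitin ligase, the acceptor lay 21 nt upstream and had 26.7% and 26.0% in K700E against 0.575% and 0% in wild type at day 4. WDR34 had its acceptor 17 nt upstream, MED13L 36 nt upstream at an annotated site, and ZBTB11 46 nt downstream.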

How the data were processed

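Total RNA of K562 cells was sequenced; the submitters' processing notes name cutadapt, STAR and hg38. STAR 2.7.0e ran end to end on an index with GENCODE release 29, with release 22 added at mapping, per the file headers. The deposited values are counts of unique and multi-mapped reads per junction, not normalized; unique reads were used. The annotation flag and overhang deposited beside the counts were used as descriptions.

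UBA1, its event and the 12 gene lists were chosen with earlier results of these data known. Tested junctions had 5 reads in 2 or more libraries and shared a site (2 or more of them, on average 20 reads) and were fitted with diffSpliceDGE of edgeR 4.0.16. Gene counts summed unique reads over annotated introns of 1 gene; introns of several genes held 4.17% of reads and were left out. Genes were tested with edgeR's quasi-likelihood test (filterByExpr, TMM), all p-values with Benjamini-Hochberg adjustment. Each day was fitted alone. DESeq2 1.42.0 and limma 3.58.1 were alternatives. The day 4 gene fit and the day 4 junction fit by shared donor were also run on simulated data, and the other steps were not.

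Named were UBA1 junctions reaching 1% and 5 reads, all E1 enzymes, called genes and the 3 largest log2 changes of other ubiquitin lists, tested neighbours, and the 5 junctions most like the event. Some items that this rule names are left out and not reported here. Near-upstream acceptors of known targets were listed by rule, with examples chosen after their values were seen; METTL5, ITGA2B, GATA1, the named epithelial markers and the acceptor before exon 4 were also chosen so. Inclusion from both junctions and the share of the upstream junction were added after seeing the data. Same replicate numbers do not mark a shared culture in the labels, and with 2 libraries per group they were not taken as pairs.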

Additional observations from a re-analysis of the deposited data

How the results depend on the processing

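The cryptic junction's difference at day 4, 11.7 points, was 10.4 to 13.0 points with each library left out, 11.7 with multi-mapped reads, 11.1 for the upstream junction and 11.4 for inclusion from both; the last 2 were chosen after seeing the data. In RPM it was 1.28, a change of unit. At day 8 it was 3.23 points and ran from -7.09 to 13.5 with a library left out. The share at the cryptic exon's donor was not run, since 2 libraries had no reads there. The UBA1 gene level at day 4 was -0.027 on the log2 scale with all 8 libraries in 1 model and -0.024 to -0.011 with a library left out; at day 8 it stayed above 0 and uncalled in all 9 alternatives. UBA1 junctions called at day 4 were 2 by limma in either fit and 0 without either wild-type library; without either K700E library the count is also 0, since the cryptic junctions then fail the read filter. Junctions called by shared donor were 327, and 8 to 110 with a library left out; limma called 296, with 156 higher and 140 lower. By shared acceptor they were 20, with 81 by limma and 0 to 58 with a library left out. Genes called at day 4 were 74, against 1634 by DESeq2, 1567 with no filter, 0 with 8 libraries in 1 model, and 0 (without either wild-type library) to 2536 (without K700E replicate 1) with a library left out; without K700E replicate 2 they were 1255. Of 70 pathway genes, 7 were called at day 4 by DESeq2, beside 1634 of 13991 genes, and 4 with no filter, beside 1567 of 19722. Genes called at day 8 were 27 by DESeq2. The cause of these changes was not tested.

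With the replicate block, 126 genes, 1 pathway gene, 247 junctions by donor and 8 by acceptor were called at day 4; UBA1 calls were 1 in each junction fit, as without it. Same-numbered libraries correlated at 0.10 (day 4) and 0.27 (day 8) over genes and at 0.01 to 0.10 over junctions, so only a shared number is known.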
